A study of Mus musculus with 2 samples.

Results

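Goblet cells, the mucus-secreting cells of the gut lining, were described in single cells of mouse small intestine. They were chosen by their transcripts, as barcodes with at least 500 unique molecular identifiers (UMIs, tags that each mark 1 captured RNA molecule) and 200 or more genes, with a mitochondrial share of 25% or less, in which Muc2, Clca1, Fcgbp, Zg16 and Tff3 together held at least 1.5% of the UMIs, Muc2 had at least 3 UMIs, the leukocyte gene Ptprc had 0, and the Paneth cell genes Lyz1, Defa24 and Defa30 held under 5%. This gave 680 goblet cells among 15242 kept cells, 295 of 7913 in the model library and 385 of 7329 in the control library. The model group and the control group were 1 droplet (10x Genomics) library each. The series title names simulated microgravity, radiation and a compound called CB001; the labels say neither what the model animals received nor their strain, sex or age, nor how many animals or which stretch of intestine a library holds. What both groups share, per the series' design text, is dissociation of intestine freed of mesentery and Peyer's patches, first in EDTA and then by collagenase with DNase. With 1 library per group, every difference below is between 2 libraries, no test was possible, and the 95% intervals cover counting error only.

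Goblet cells arise in the crypt from secretory progenitors that escape Notch signalling, a step that needs the transcription factor Atoh1, and mature under Spdef. They fold the gel-forming mucin Muc2 in the endoplasmic reticulum (ER), coat it with O-glycans in the Golgi, store it in granules and release it onto the villus surface together with proteins that organise the mucus and keep bacteria away. In the small intestine the mucus is loose and carries antibacterial proteins from Paneth cells and enterocytes.

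The goblet cells of the 2 libraries differed in depth. Model goblet cells had a median of 7596 UMIs (557 to 63731) and 1992 genes, and control goblet cells a median of 4131 UMIs (511 to 117964) and 1348 genes. Their summed UMIs were 2958999 in the model library and 3419574 in the control library. The median mitochondrial share was 4.55% in model and 6.30% in control goblet cells. No goblet barcode of either library was found in the other, while 28 barcodes occurred in both libraries among all barcodes. The 5 markers held a median of 24.5% of the UMIs of a model goblet cell (at most 59.0%) and 15.8% in control (at most 57.8%), but their pooled shares were 19.7% and 19.8%. The cut at 1.5% ran through a dense region of the control library: 14 model and 62 control goblet cells lay between 1.5% and 2%, and 13 model and 57 control barcodes that met the other conditions lay between 1% and 1.5%. The lowest marker shares inside the cut were 1.52% in model and 1.5% in control, and the highest outside were 1.48% and 1.49%.

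**Figure D1:**
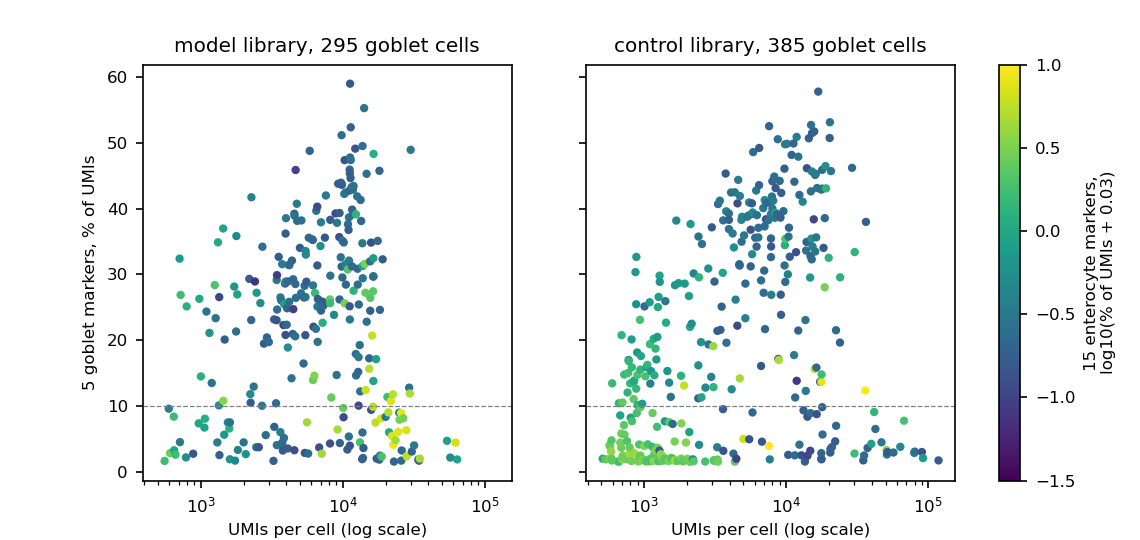
Each point is 1 goblet cell, with its UMIs on a log axis and the share of its UMIs from the 5 markers of the rule; colour gives the share of 15 enterocyte markers, and the dashed line marks 10%. The control library has a group of cells with about 1000 UMIs, low marker shares and raised enterocyte transcripts that is thin in the model library.

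The genes of the rule are given as a description, since they chose the cells. Zg16, a lectin that binds Gram-positive bacteria, was the most abundant, with 103900.3 CPM in model goblet cells, against 93246 CPM in control ones. Tff3, a trefoil peptide of the mucus, had 39659 CPM in model and 47869 CPM in control goblet cells, and Fcgbp, a protein that binds within the Muc2 gel, 27678 CPM in model goblet cells, against 26611 CPM in control ones. Muc2 had 19126 CPM in model and 24163 CPM in control goblet cells, and Clca1, a mucus-processing metalloprotease, 6149 CPM in model goblet cells, against 6440.3 CPM in control ones. CPM scale a gene's UMIs to the UMIs summed over the goblet cells of a library. As a picture of the gene that defines these cells, the 250 bases before the start of Muc2 are shown, from RefSeq's GRCm38.p6 annotation, with the E-box CAGCTG, a form of the motif bound by Atoh1-type factors, and TATAAA, the TATA-box form, in capitals.
Muc2 (chr7:141690090-141690339, plus strand): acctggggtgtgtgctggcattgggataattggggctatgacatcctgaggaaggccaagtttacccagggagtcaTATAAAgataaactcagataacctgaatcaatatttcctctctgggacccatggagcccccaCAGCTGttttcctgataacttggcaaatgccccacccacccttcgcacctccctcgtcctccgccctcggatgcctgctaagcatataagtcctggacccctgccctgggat
CAGCTG lay 112 bases before the start and TATAAA 174 bases before it. Searched on both strands, CAGCTG occurred in 13% and TATAAA in 12.4% of 32851 mouse promoters of this length, and a match does not show that a factor binds.

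The goblet label was set beside 28 goblet genes that the rule did not use. They were chosen with earlier results of these data known, so they are no independent check. Of these, 23 had their highest level in goblet cells among the gated classes of cells, and 26 stood at least 4 times above the other epithelial cells in both libraries; over all genes, 2.60% of 8204 did so. Agr2, an ER enzyme needed to fold Muc2, was 47.3 times higher than in other epithelial cells in the model and 38.2 times in the control library. Spink4, a secreted protease-inhibitor family peptide, was 53 and 31.2 times higher, and was higher still in the Paneth gate. By CPM the 15 leading genes enriched in this way were Spink4, Agr2, S100a6, Krt18, Ccl6, Guca2a, Cldn4, Tm4sf4, Dusp1, Phlda1, Txndc5, Hepacam2, Sh3bgrl3, Selenom and Klk1. Spdef had 101 CPM in model and 82.8 CPM in control goblet cells, against 2.3 and 3.7 CPM in the crypt gate, a range of cells with Olfm4, Slc12a2 or other crypt transcripts. After cells were thinned to 1000 UMIs each, which left out 14 model and 65 control goblet cells with fewer, Spdef was seen in 10.3% of model and 10.6% of control goblet cells (53.9% and 36.1% without thinning) and in 0% of T cells in both libraries. These genes go with the goblet label in both libraries. Some other genes linked to mucus were near 0 here: Retnlb, a goblet peptide induced in helminth infection, had 0 UMIs in model and 11 in control goblet cells, and the mucins Muc5b and Muc1 had 0 in both.

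Transcripts of other cell types were present and were not equal between libraries. The 15 enterocyte markers made up 1.43% of all model and 0.739% of all control goblet UMIs, yet the median goblet cell held 0.235% in model and 0.416% in control. The crypt gate held 0.292% and 0.216%. Cells with at least 3% of UMIs from enterocyte genes had gone to the enterocyte gate first, a limit that goblet cells did not have. The lower crypt values thus follow in part from the gates. Over 1% was reached by 57 model goblet cells (19.3%) and 142 control ones (36.9%), with a median of 14270 UMIs in model and 1189 UMIs in control. Of 15 enterocyte markers, 12 were called higher and 0 lower in model goblet cells. The 7 plasma cell markers made up 0.353% of model and 0.707% of control goblet UMIs, all 4 with enough UMIs were called lower, Mzb1 was at 0 in both libraries, and 10 model and 93 control cells held over 1%. The 8 T cell markers summed to 123 CPM in model and 273 CPM in control goblet cells, with 4 of 6 called lower and none of the markers at 0. Of 7 stromal markers, 4 of 4 were called lower: Dcn, a fibroblast proteoglycan, had 5 UMIs in the model and 202 in the control library, with 3 and 168 of them in the marker-rich cells defined next, and Lum had 0 UMIs in model goblet cells, against 28 in control ones. A single control cell held 65.3% of the control Dcn UMIs. A single cell also held 36.4% of the plasma marker UMIs in model and 30.2% in control; without these cells the levels were 2257 CPM in model and 4970.4 CPM in control. The 9 Paneth markers outside the rule summed to 978 CPM in model and 741 CPM in control, with 1 of 7 called higher and 4 lower. Enteroendocrine markers summed to 58.5 CPM in model and 29.2 CPM in control, tuft markers to 26.4 and 7.6 CPM, and myeloid markers to 113 and 141 CPM; Gfi1b was at 0 in both, and Scg3, Pcsk1n and Isl1 were at 0 in model.

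Because of this, values are also given for marker-rich goblet cells, in which the 5 markers held at least 10%, enterocyte markers at most 1% and immunoglobulins at most 2% of the UMIs. This range was chosen after the data were seen and holds 178 model and 187 control cells, with medians of 6812.5 and 6443 UMIs, so that depth was close to equal. The enterocyte and plasma lists chose this range, so their values in it (median log2 ratio 0.0063, and 0 of 3 plasma markers called) follow from the choice. Fibroblast RNA was not removed by it, and all 4 measured stromal markers were still called lower. The genes of the rule held 32.5% of its UMIs in model and 37.3% in control, and the median log2 ratio over all genes was 0.14, against −0.054 in all goblet cells; values in marker-rich cells are to be read against that shift.

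Goblet cells were 3.73% of kept cells in the model library (exact Clopper-Pearson 95% interval 3.32 to 4.17%) and 5.25% in the control library (4.75 to 5.79%), a ratio of 0.710 (0.608 to 0.828). Among gated epithelial cells they were 8.65% in model (7.73 to 9.64%) and 9.04% in control (8.19 to 9.94%), a ratio of 0.957 (0.820 to 1.12), so the lower share in all cells did not hold among epithelial cells. With a marker share of at least 5% the ratio was 0.858 (0.717 to 1.03). With a mitochondrial limit of 10%, which also cut the kept cells it is a share of, the ratio was 0.574 (0.479 to 0.687). Leaving out goblet cells over 2% immunoglobulin UMIs left 292 in model and 294 in control, against 295 and 385. No share was computed for that setting, and the part of immunoglobulin-carrying control barcodes in the lower share was not tested. The Ptprc condition removed 26 model and 66 control barcodes, the Paneth condition 2 and 38, and the Muc2 condition 49 and 339. How many cells of each type survived dissociation was not measured.

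The goblet cells varied among themselves along the marker share. Where the 5 markers held 1.5 to 5%, there were 55 model cells (18.6%) with a median of 8122 UMIs and 126 control cells (32.7%) with a median of 1566.5 UMIs; their median mitochondrial share was 8.08% in model and 13.3% in control. Where the markers held 30% or more, there were 90 model cells (30.5%) with a median of 9890 UMIs and 130 control cells (33.8%) with a median of 7990.5 UMIs. The 28 cell cycle genes summed to 2657 CPM in model and 2869 CPM in control cells of the lowest range, and to 124 and 115 CPM in the highest. Mki67, a marker of cycling cells, had 154 CPM in model and 144 CPM in control cells of the lowest range, and 1.17 and 0 CPM in the highest. Crypt genes followed the same order, with 742 CPM in model and 807 CPM in control cells of the lowest range and 142 and 180 CPM in the highest. Spdef ran the other way, with 67.9 CPM in model and 53.3 CPM in control at the low end and 122 and 104 CPM at the high end. Atoh1 did so too, with 98.2 and 48.9 CPM at the low end and 200.1 and 169 CPM at the high end. In summed CPM, the low end thus had higher cell cycle levels and lower levels of these secretory factors in both libraries. Such sums weigh each cell by its UMIs. Many shallow control cells of the lowest range held over 2% immunoglobulin UMIs, so that range mixes unlike barcodes. Over all ranges, 292 of 295 model and 294 of 385 control goblet cells held at most 2%. Enterocyte markers were at their highest between 5 and 15%, with 33392 CPM in model and 18488 CPM in control cells. The plasma markers were at 1300 CPM in model and 22345 CPM in control cells between 15 and 30%. In that control value 1 cell held 94.5% of the plasma marker UMIs, and without it the level was 1319 CPM. Genes of the rule set the ranges, so these orders are descriptions of 2 libraries.

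**Figure D2:**
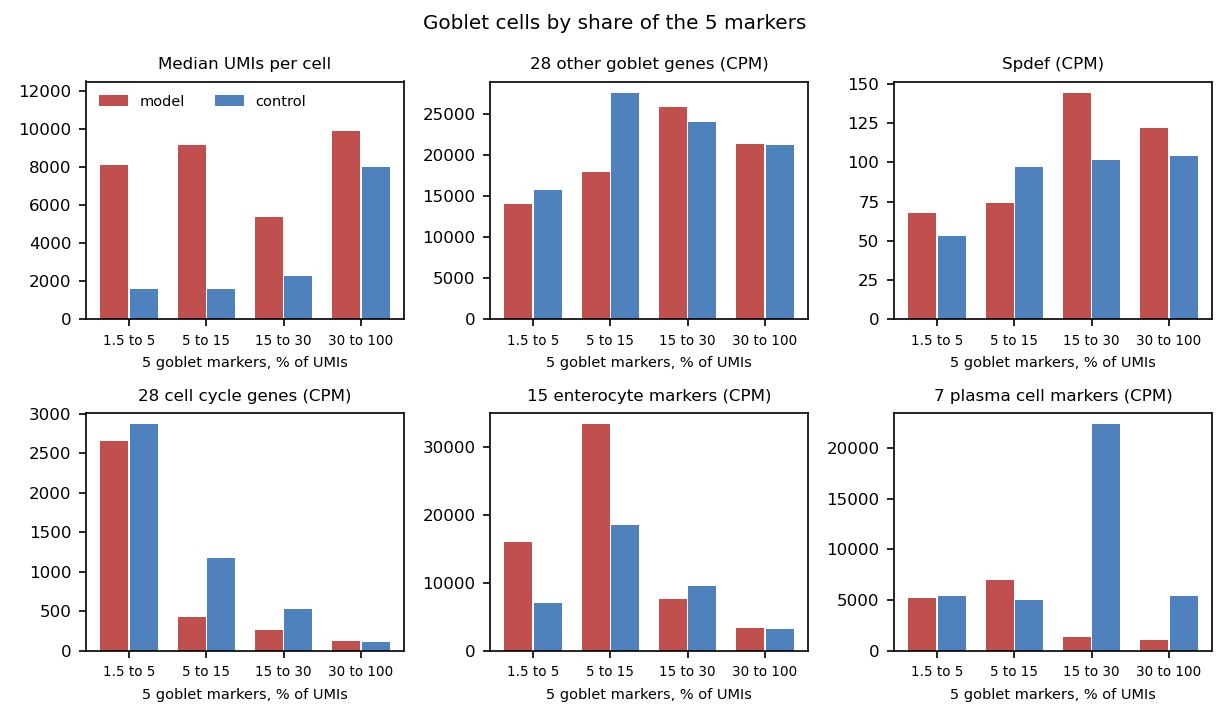
Goblet cells of the model library (red, left) and the control library (blue, right) in 4 ranges of the share of the 5 markers, with the median UMIs per cell and summed CPM of Spdef and 4 gene lists; bars start at 0. Cell cycle genes are highest in the lowest range in both libraries, and the control ranges below 30% have medians of about 1600 to 2300 UMIs per cell.

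In the comparison of model with control goblet cells, a gene was called higher where the ratio of CPM reached 1.5, and lower where it reached the inverse, with an exact binomial 95% interval that leaves out 1. Of 9204 genes with at least 20 UMIs in the higher library, leaving out the 9 genes of the rule, 425 were called higher (4.62%) and 600 lower (6.52%). In marker-rich cells 5772 genes could be measured, of which 448 were called higher (7.76%) and 216 lower (3.74%), so the balance of the 2 directions depended on which goblet cells were taken. Of the 425 higher genes 83 were called higher there too, and of the 600 lower ones 99 were called lower. The sums also leaned on the deepest cells. Without the 8% of goblet cells with the most UMIs, 603 of 7546 genes were called higher (7.99%) and 283 lower (3.75%). Of the 425 higher genes 265 kept their call in that setting, and of the 600 lower ones 192. The percentages in all goblet cells and in marker-rich cells are the background for the counts below.

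**Figure D3:**
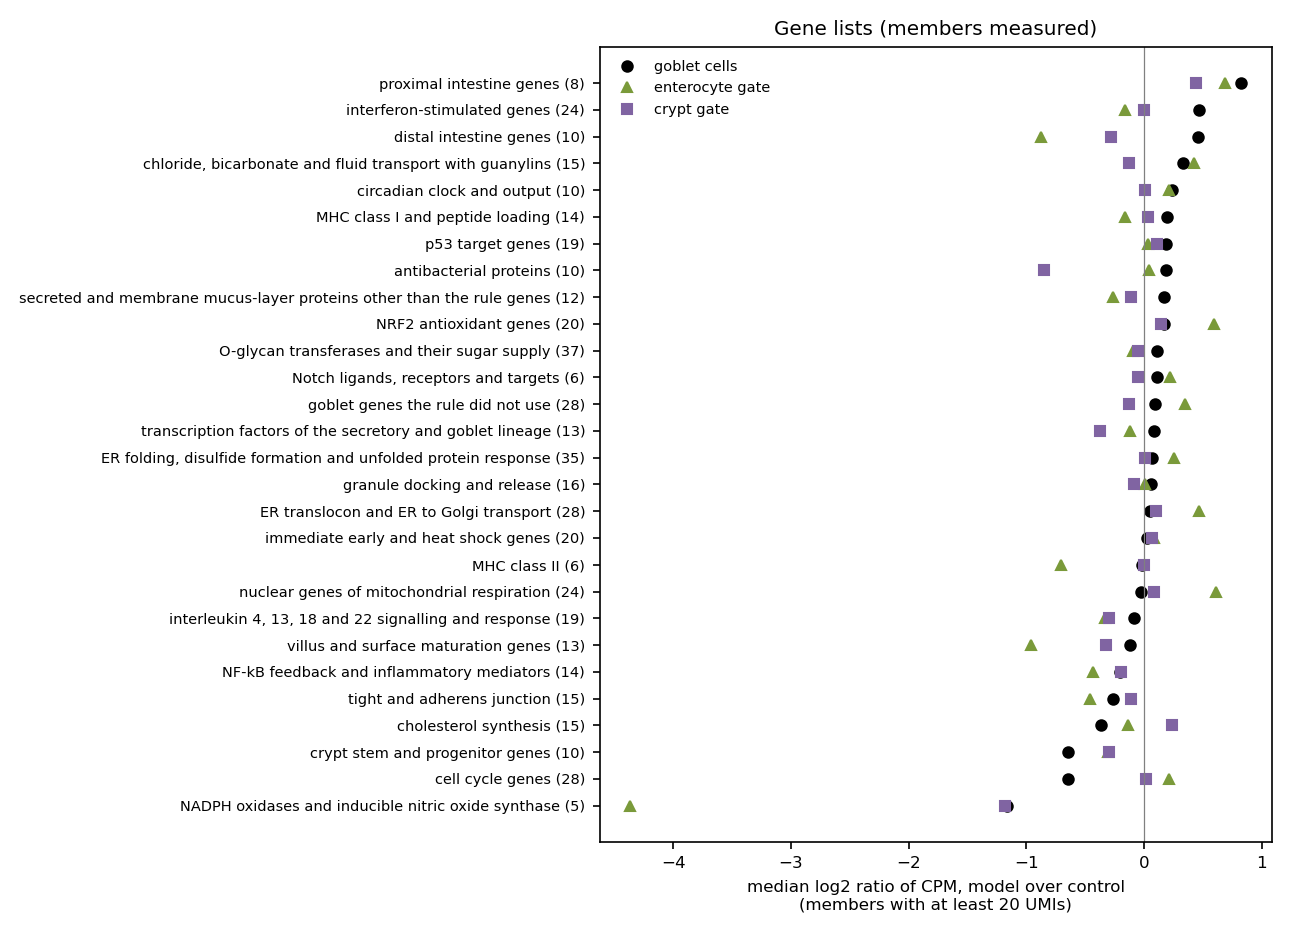
Median log2 ratio of CPM, model over control, of the measured members of each gene list in goblet cells (black circles), in the enterocyte gate (green triangles) and in the crypt gate (violet squares). Lists with at least 5 measured members are drawn, without the markers of other cell types. Lists of the secretory machinery sit near 0 in goblet cells, and of those drawn the NADPH oxidase list lies furthest below 0, at −1.16.

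Goblet identity genes were called in neither direction. Of the 28 goblet genes outside the rule, 0 were higher and 0 lower (in marker-rich cells 3 were higher and 0 lower), and their median log2 ratio was 0.097. Slc12a8, a transporter, stood highest with 770 UMIs in model and 623 in control goblet cells, a ratio of 1.43 (95% interval 1.28 to 1.59). Spink4 stood lowest with 16971 UMIs in the model and 24781 in the control library, a ratio of 0.791 (95% interval 0.776 to 0.807). The ratios of all 28 lay between these values. The summed level of the list was 19553 CPM in model and 20237 CPM in control goblet cells.

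**Figure D4:**
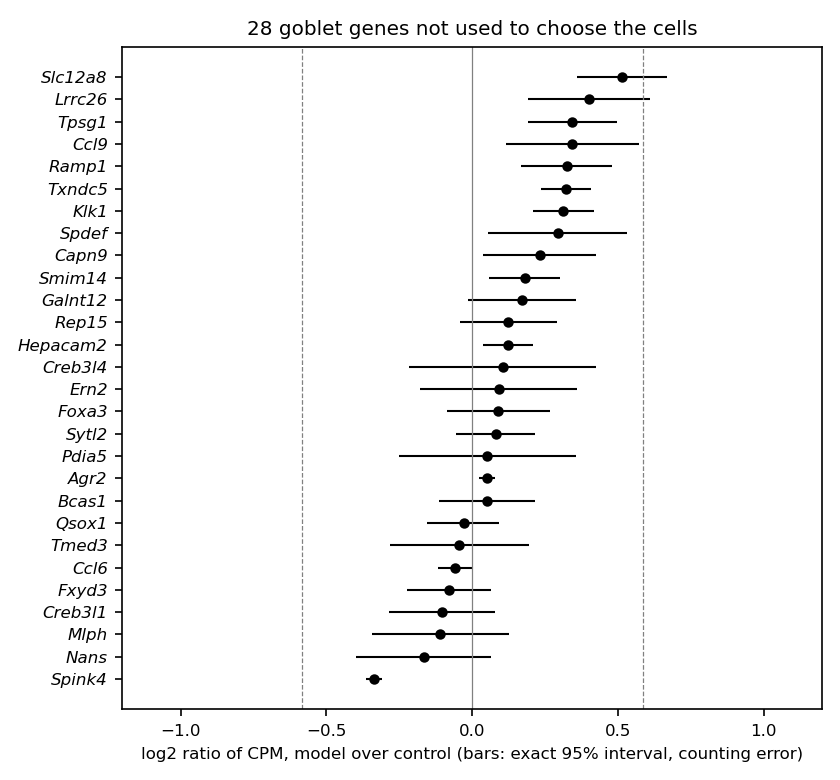
Log2 ratio of CPM, model over control, of the 28 goblet genes outside the rule, with exact 95% intervals; dashed lines mark ratios of 1.5 and its inverse. All 28 points lie between the dashed lines, from Spink4 at the bottom to Slc12a8 at the top.

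Among 13 transcription factors of the secretory lineage, 1 was called higher and 1 lower. Gfi1, a repressor downstream of Atoh1, had 38 UMIs in model goblet cells, against 21 in control ones, a ratio of 2.09 (95% interval 1.2 to 3.75), and was also higher in marker-rich cells at 2.88 (1.17 to 8.06). Sox9, a crypt and progenitor factor, had 99 UMIs in model and 214 in control goblet cells, a ratio of 0.535 (95% interval 0.417 to 0.682), which was 1.59 (0.867 to 2.99) in marker-rich cells. Klf4, a goblet differentiation factor, had 1087 CPM in model and 789 CPM in control goblet cells, a ratio of 1.38 (1.31 to 1.45). Atoh1 had 154 CPM in model goblet cells, against 114 CPM in control ones, a ratio of 1.35 (1.18 to 1.55), and Spdef one of 1.23 (1.04 to 1.45); neither passed 1.5.

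Of 6 measured Notch pathway genes, the ligand Dll4 was called higher and the receptor Notch1 lower. Dll4 had 232 UMIs in model and 125 in control goblet cells, a ratio of 2.14 (95% interval 1.72 to 2.69), and 2.32 (1.72 to 3.17) in marker-rich cells. Thinned to 1000 UMIs, it was seen in 6.76% of model and 3.75% of control goblet cells (39.3% and 19.7% without thinning) and in 0.175% and 0.40% of T cells. Goblet cells had the highest Dll4 level of the gated classes, against 9.32 and 11.3 CPM in the enterocyte gate. The related ligand Dll1 had 221 UMIs in the model and 256 in the control library, a ratio of 0.998 (0.83 to 1.2). Notch1 rested on few molecules, with 9 UMIs in model goblet cells, against 24 in control ones.

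The machinery that builds and exports mucin was near level in the sums over all goblet cells. Of 35 genes of ER folding, disulfide formation and the unfolded protein response, 0 were called higher and 0 lower, with a median log2 ratio of 0.066. Txndc5, a protein disulfide isomerase, stood highest at 1.25 (1.18 to 1.33), and Derl2, a factor of ER-associated degradation, lowest at 0.831 (0.654 to 1.05). Hspa5, the ER chaperone BiP, had 1803 CPM in model goblet cells, against 1644 CPM in control ones, Xbp1, a transcription factor of the unfolded protein response, 346 CPM in model and 336 CPM in control goblet cells, and Ern2, the stress sensor of mucous epithelia, 75 CPM in model goblet cells, against 70.5 CPM in control ones. In marker-rich cells the median of this list was 0.40, with 4 higher and 0 lower of 34, above the shift of 0.14 named earlier. Of 28 genes of the translocon and ER to Golgi transport, 0 were called either way, with a median log2 ratio of 0.055. In marker-rich cells 5 of 28 were higher and 0 lower, with a median of 0.30.

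Of 37 measured genes of O-glycan synthesis, 1 was called higher and 3 lower, with a median log2 ratio of 0.11. In marker-rich cells 4 of 33 were higher and 1 lower, with a median of 0.18. Galnt7, a transferase that adds the first sugar to mucins, had 435 CPM in model and 426 CPM in control goblet cells, C1galt1, which makes the core 1 glycan, 166 CPM in model goblet cells, against 161 CPM in control ones, and Gcnt3, which branches it, 319 CPM in model and 225 CPM in control goblet cells. Those ratios were 1.02 (0.948 to 1.1), 1.03 (0.908 to 1.16) and 1.42 (1.29 to 1.56). Papss2, which makes the sulfate donor for sulfated glycans, had 637 UMIs in model and 201 in control goblet cells, a ratio of 3.66 (95% interval 3.12 to 4.31). Its level was far higher in the enterocyte gate, with 899 CPM in model and 323 CPM in control, and in marker-rich goblet cells the ratio was 0.848 (0.587 to 1.22), where the call did not hold. Fut2, the fucosyltransferase of the secretor type, had 3 UMIs in the model and 29 in the control library, 8.36-fold lower (95% interval 2.59 to 42.9), and 0 and 2 UMIs in marker-rich cells. St3gal1, a sialyltransferase, had 23 UMIs in model goblet cells, against 75 in control ones, 2.82-fold lower (95% interval 1.75 to 4.72), and was also lower in marker-rich cells at 0.297 (0.131 to 0.614). Gcnt4 had 26 UMIs in model and 52 in control goblet cells.

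Of 16 genes of granule docking and release, 1 was called higher, Nlrp6, an inflammasome protein tied in mice to goblet cell mucus release, with 400 UMIs in the model and 290 in the control library. Its ratio was 1.59 (1.37 to 1.86), and 3.03 (1.54 to 6.39) in marker-rich cells; the enterocyte gate held more of it, with 440.2 CPM in model and 198 CPM in control. The vesicle proteins Rab27b, Sytl2 and Vamp8 had ratios of 0.95, 1.06 and 1.05. Among 12 other mucus-layer proteins, Reg4 was called higher and Ang4 lower. Muc13, a membrane mucin, had 2404 CPM in model and 2186 CPM in control goblet cells, and Lypd8, which binds flagellated bacteria, 4509 CPM in model goblet cells, against 3909 CPM in control ones, with ratios of 1.1 (1.06 to 1.14) and 1.15 (1.13 to 1.18).

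Of 15 genes of ion and fluid transport, 5 were called higher and 1 lower, with a median log2 ratio of 0.33. Guca2b, uroguanylin, a peptide that drives chloride and fluid secretion, had 1410 UMIs in the model and 691 in the control library, a ratio of 2.36 (95% interval 2.15 to 2.59). The anion exchangers Slc26a3 and Slc26a6 had ratios of 1.53 (1.21 to 1.94) and 1.69 (1.37 to 2.11). Car2, a carbonic anhydrase, had 31 UMIs in model goblet cells, against 9 in control ones, and Aqp3, a water and glycerol channel, 27 UMIs in model and 7 in control goblet cells. Kcnn4, a potassium channel, was lower, with 39 UMIs in the model and 94 in the control library. Guca2a, guanylin, had 937 CPM in model and 1093 CPM in control goblet cells, a ratio of 0.858 (0.816 to 0.901). In marker-rich cells 1 of 7 measured members was higher and 0 lower, but the higher one was not called in all goblet cells. None of the 6 calls remained there: Guca2b stood at 1.02 (0.721 to 1.45), and the other 5 genes were under the minimum. The enterocyte gate held 2796 CPM of Guca2b in model and 1929.5 CPM in control. The enterocyte markers were 1.43% of model and 0.739% of control goblet UMIs, and their part in these calls was not tested beyond the marker-rich range.

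Antibacterial proteins split, with 2 of 10 called higher and 3 lower. Reg3g, a lectin that kills Gram-positive bacteria, had 2685 UMIs in model and 6437 in control goblet cells, or 907 and 1882 CPM, 2.07-fold lower (95% interval 1.98 to 2.17). In marker-rich cells it had 256 UMIs in model and 579 in control, a ratio of 0.446 (0.383 to 0.517). T cells, which should lack it, held 444 CPM in model and 403 CPM in control. Goblet cells of the model library held more enterocyte RNA than these T cells, with 1.43% against 0.566% of UMIs from enterocyte markers, so the T cell level is no upper limit for Reg3g RNA from other cells. Thinned to 1000 UMIs, Reg3g was seen in 16.7% of model and 38.8% of control goblet cells (43.1% and 68.1% without thinning), against 8.51% and 13.7% of T cells. The crypt gate was lower as well, at 739 CPM in model and 1664 CPM in control, while the enterocyte gate had 3296 and 2528 CPM. Across the 16 sets of goblet cells and scalings tried, the Reg3g ratio lay below 1 in each, between 0.217 and 0.899, and in 3 of them it did not reach the call. Its near copy Reg3b had 5069 CPM in model and 3761 CPM in control goblet cells, a ratio of 1.35 (1.32 to 1.38), which was 0.677 (0.607 to 0.755) in marker-rich cells; how reads were shared between these copies is not given in the sources used here. The promoter of Reg3g is shown because it is the most abundant gene called lower among those named by size of change, with TATAAA, read on either strand, in capitals.
Reg3g (chr6:78468875-78469124, minus strand): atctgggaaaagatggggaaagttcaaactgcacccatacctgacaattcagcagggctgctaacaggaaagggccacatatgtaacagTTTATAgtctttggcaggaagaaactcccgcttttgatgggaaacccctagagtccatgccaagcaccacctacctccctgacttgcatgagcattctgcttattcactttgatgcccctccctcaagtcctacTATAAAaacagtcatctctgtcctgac
The match nearest the start lay 27 bases before it, and a match on the other strand (TTTATA) 161 bases before it.

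Saa1, an acute-phase protein that gut epithelium makes on contact with bacteria, had 6 UMIs in model goblet cells, against 69 in control ones, 9.95-fold lower (95% interval 4.35 to 28.1). It was seen in 1.02% of model and 7.27% of control goblet cells, and goblet cells held its highest level of all gated classes. Thinned to 1000 UMIs, it was seen in 0.356% of model and 1.56% of control goblet cells, against 0% and 0.0801% of T cells. A single model cell held 4 of the 6 model UMIs. In marker-rich cells the counts were 4 in model and 63 in control. Ang4, an antibacterial ribonuclease, had 136 UMIs in model and 302 in control goblet cells, a ratio of 0.52 (0.422 to 0.639), and 0.304 (0.219 to 0.415) in marker-rich cells. Reg4 had 92 UMIs in the model and 68 in the control library, and Reg3a 284 UMIs in model goblet cells, against 158 in control ones; Reg4 was also called higher in marker-rich cells, Reg3a was not. Ang4 and the intelectin Itln1 were far more abundant in the Paneth gate, which held 8 model and 60 control cells, and the part of Paneth RNA in these values was not tested. Pigr, which carries immunoglobulin A across the epithelium, had 1503 CPM in model goblet cells, against 1339 CPM in control ones, a ratio of 1.12 (1.08 to 1.17).

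Apart from the markers of other cell types, the NADPH oxidases and nitric oxide synthase formed the list with the lowest median, at −1.16 on the log2 scale, with 4 of 5 measured members called lower. Duox2, which makes hydrogen peroxide at the epithelial surface, had 14 UMIs in the model and 215 in the control library, or 4.73 and 62.9 CPM, 13.3-fold lower (95% interval 7.75 to 24.7). Its partner Duoxa2, which brings Duox2 to the membrane, had 43 UMIs in model goblet cells, against 111 in control ones, 2.23-fold lower (95% interval 1.56 to 3.25). Nos2, the inducible nitric oxide synthase, had 3 UMIs in model and 35 in control goblet cells, and Noxo1, an organiser of the Nox1 oxidase, 52 UMIs in the model and 103 in the control library. Cyba, a subunit common to Nox enzymes, had 202 UMIs in model goblet cells, against 298 in control ones, a ratio of 0.783 (0.652 to 0.94). Duox2 was lower in other epithelial cells too, with 2.26 CPM in the model and 126 CPM in the control enterocyte gate and 20.2 and 81.5 CPM in the crypt gate, so the difference was not peculiar to goblet cells. Thinned to 1000 UMIs, Duox2 was seen in 0.712% of model and 5.31% of control goblet cells (4.07% and 16.4% without thinning), against 0% and 0.881% of T cells. In marker-rich cells Duox2 was still called lower, with 4 UMIs in model and 25 in control, while Duoxa2 was at 1.16 (0.669 to 2.02) and the median of the 3 members that could be measured was 0.21. Duox2 and Duoxa2 lie head to head on chromosome 2, with starts 673 bases apart, and are shown as a pair called lower together, 250 bases before each start, GRCm38.p6 from RefSeq, searched for CAGCTG and TATAAA on both strands with matches in capitals.
Duox2 (chr2:122298228-122298477, minus strand): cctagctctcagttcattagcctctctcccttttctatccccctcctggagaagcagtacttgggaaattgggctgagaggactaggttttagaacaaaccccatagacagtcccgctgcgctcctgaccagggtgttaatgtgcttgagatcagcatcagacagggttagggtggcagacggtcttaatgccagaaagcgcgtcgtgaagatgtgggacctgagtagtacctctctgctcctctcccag
Duoxa2 (chr2:122298650-122298899, plus strand): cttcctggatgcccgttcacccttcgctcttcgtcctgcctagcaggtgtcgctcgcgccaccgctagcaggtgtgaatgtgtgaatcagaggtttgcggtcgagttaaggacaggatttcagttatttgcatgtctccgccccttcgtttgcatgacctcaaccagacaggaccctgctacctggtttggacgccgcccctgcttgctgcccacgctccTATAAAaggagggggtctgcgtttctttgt
TATAAA lay 30 bases before the start of Duoxa2, and neither motif was found in the Duox2 window.

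Interferon-stimulated genes were called higher in 8 of 24 measured members and lower in 0, with a median log2 ratio of 0.47. Isg15, a ubiquitin-like protein, had 380 UMIs in model and 170 in control goblet cells, a ratio of 2.58 (95% interval 2.15 to 3.11). Ifit1, which binds foreign RNA, had 79 UMIs in the model and 31 in the control library, and Dhx58, the RNA sensor LGP2, 30 UMIs in model goblet cells, against 10 in control ones. Parp14, an ADP-ribosyltransferase, had 187 UMIs in model and 108 in control goblet cells, and Zbp1, a sensor of Z-form nucleic acid, 136 UMIs in the model and 94 in the control library. Oas2, Rtp4 and Ifi44 had ratios of 2.6 (1.5 to 4.65), 2.08 (1.36 to 3.24) and 2.63 (1.25 to 5.91). Thinned to 1000 UMIs, Isg15 was seen in 10.3% of model and 5% of control goblet cells (37.3% and 20% without thinning), against 6.58% and 5.2% of T cells, which express interferon-stimulated genes themselves. Rsad2, another antiviral gene, had 276 UMIs in model goblet cells, against 333 in control ones, a ratio of 0.958 (0.814 to 1.13), and Gbp2 the lowest ratio at 0.618 (0.356 to 1.05). In marker-rich cells 4 of 21 were higher and 1 lower, with a median of 0.25; Isg15 stood at 2.62 (2.09 to 3.31), Parp14 at 1.73 (1.22 to 2.48) and Ifit1 at 1.74 (0.942 to 3.3). Of the 8 calls 2 remained there, those of Isg15 and Parp14, 4 did not, and 2 genes were under the minimum. In the enterocyte gate the median of the same list was −0.16, with Isg15 at a ratio of 1.04 and Ifit1 at 0.743, and in the crypt gate it was −0.00035; the difference between goblet cells and these gates was not tested. Of 14 genes of MHC class I and peptide loading, 0 were called either way, with all 14 ratios above 1, from Psmb10 at 1.01 to H2-Q2 at 1.49 (1.33 to 1.67); with each cell weighted equally the median of this list turned to −0.20. MHC class II had 0 called of 6. In marker-rich cells 0 of 12 class I and 0 of 3 class II genes were called.

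Of 19 genes of interleukin 4, 13, 18 and 22 signalling, 2 were called higher and 4 lower, including Fut2 and Reg3g. Gsdmc2 and Gsdmc4, gasdermins that rise in mouse gut under type 2 cytokines, had 3 UMIs in model and 39 in control goblet cells, and 9 in model against 73 in control, 11.2-fold lower (95% interval 3.58 to 56.9) and 7.02-fold lower (95% interval 3.5 to 16). Gsdmc4 had 16.3 CPM in the model and 49.8 CPM in the control crypt gate, and in marker-rich cells Gsdmc2 had 0 and 3 UMIs and Gsdmc4 0 and 1, too few to compare. Il18, a cytokine of the epithelium, had 239 UMIs in the model and 135 in the control library, a ratio of 2.05 (1.65 to 2.55), and 1.18 (0.597 to 2.34) in marker-rich cells. Sprr2a3 had 76 UMIs in model goblet cells, against 54 in control ones. Of 14 NF-kB and inflammatory genes, Cxcl10 and Il33 were called higher and Rela and Ccl28 lower. The chemokine Cxcl10 had 28 UMIs in model and 5 in control goblet cells, and the subunit Rela 59 UMIs in the model and 108 in the control library. The alarmin Il33 had 71 UMIs in model goblet cells, against 54 in control ones, and Ccl28, which draws plasma cells to mucosa, 30 UMIs in model and 69 in control goblet cells. In marker-rich cells Rela kept its call at 0.567 (0.34 to 0.927) and Il33 lost it at 1.33 (0.835 to 2.12), while Cxcl10, with 12 UMIs in model and 2 in control, and Ccl28, with 9 and 8, were under the minimum. Of 15 tight and adherens junction genes 0 were called, with a median log2 ratio of −0.26, and 0 of 14 in marker-rich cells.

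Cell cycle genes were called lower in 14 of 28 members and higher in 0, with a median log2 ratio of −0.64 and all 28 ratios below 1. Top2a, the topoisomerase of dividing cells, had 152 UMIs in the model and 360 in the control library, a ratio of 0.488 (95% interval 0.401 to 0.591). Ccna2 and Aurka, a cyclin and a mitotic kinase, had ratios of 0.422 (0.283 to 0.618) and 0.385 (0.204 to 0.69), and Hmgb2, a chromatin protein of cycling cells, one of 0.638 (0.585 to 0.695). Mcm6, a replication helicase subunit, was nearest to 1 at 0.931 (0.639 to 1.35). These summed levels were highest at the low end of the marker share, which held 55 model and 126 control cells. Deep cells weigh most in such sums. The deepest control goblet cell, with 117964 UMIs, had 0.437% cell cycle UMIs, against a median of 0.0219% over control goblet cells. The parts of cell number and of depth in the difference were not tested. Without the 8% of goblet cells with the most UMIs the median turned to 0.24, with 5 of the 18 members still measured higher and 1 lower. With each cell weighted equally the median stayed below 0 at −0.49. By intervals rescaled from the summed UMIs, which are not exact for that weighting, 1 of 28 was higher and 12 lower. In marker-rich cells only 4 members could be measured, and 0 were called. Crypt stem and progenitor genes were called lower in 5 of 10, including Ephb3, Cd44 and Axin2, with a median of −0.64. In marker-rich cells 1 of 5 was lower and the median was 0.012. None of the 5 calls remained there, with 1 gene not called and 4 under the minimum, so the lower member was another gene. Lgr5, the stem cell receptor, had 0 UMIs in model goblet cells, against 2 in control ones.

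Among 20 targets of the antioxidant factor NRF2, 6 were called higher and 1 lower. The glutathione transferase Gstm3 had 234 UMIs in model and 69 in control goblet cells, a ratio of 3.92 (95% interval 2.98 to 5.2). Gsta4, Gstm1, Cbr1, G6pdx and Me1 had ratios between 1.51 and 2.43, and Gsr, glutathione reductase, had one of 0.658 (0.569 to 0.759). None of these 7 calls remained in marker-rich cells: Gstm3 had 9 UMIs in model and 4 in control, Gsta4 stood at 1.32 (1.17 to 1.49), and Gsr lay on the other side of 1 at 1.22 (0.847 to 1.78). Other members were called there, 3 higher and 1 lower of 16. Of 4 measured targets of the aryl hydrocarbon receptor 1 was higher and 0 lower. That gene, Cyp1a1, a detoxifying enzyme, had 55 UMIs in the model and 1 in the control library, a ratio of 63.6 whose interval ran from 10.9 to 2556, but 2 and 0 UMIs in marker-rich cells and 108 and 24.5 CPM in the enterocyte gate. Of 19 p53 targets 1 was higher, the death receptor Fas with 50 UMIs in model goblet cells, against 36 in control ones, and 0 lower; Fas stayed called in marker-rich cells at 2.77 (1.19 to 7.2), where 3 of 12 targets were higher. Cdkn1a, the cell cycle inhibitor p21, had 545 CPM in model goblet cells, against 479 CPM in control ones, a ratio of 1.14 (1.06 to 1.22).

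Of 10 measured clock genes, 4 were called higher and 1 lower. Nr1d1, the clock repressor REV-ERB alpha, had 205 UMIs in the model and 79 in the control library, a ratio of 3.0 (95% interval 2.3 to 3.94), and 2.79 (1.82 to 4.39) in marker-rich cells. Per1 had 101 UMIs in model goblet cells, against 56 in control ones, a ratio of 2.08 (1.49 to 2.94), and was called higher in marker-rich cells too. Per3 and Nr1d2 had ratios of 2.7 (1.18 to 6.69) and 1.77 (1.21 to 2.61), and Npas2, a partner of the clock activators, one of 0.489 (0.283 to 0.819). In marker-rich cells Nr1d2 was no longer called at 1.42 (0.797 to 2.58), and Per3, with 10 UMIs in model and 4 in control, and Npas2, with 14 and 19, were under the minimum, so 2 of the 5 calls remained. Dbp, an output gene below the minimum of 20 UMIs, had 14 UMIs in model and 0 in control goblet cells. With 3 UMIs put in place of the 0 it was 5.39-fold higher, a value without counting error. In the enterocyte gate Nr1d1 had 124 CPM in model and 67.3 CPM in control. No label gives the hours at which animals were sampled, so time of day and group cannot be told apart.

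Cholesterol synthesis was called lower in 4 of 15 genes and higher in 0, with a median log2 ratio of −0.37. Sqle, squalene epoxidase, had 163 UMIs in model and 292 in control goblet cells, a ratio of 0.645 (95% interval 0.529 to 0.784). Fdps and Mvd, earlier enzymes of the pathway, had ratios of 0.646 (0.538 to 0.774) and 0.533 (0.314 to 0.881). In marker-rich cells 4 of 12 were lower and 0 higher, with a median of −0.51, and Sqle stood at 0.511 (0.385 to 0.672). Of the 4 calls in all goblet cells 2 remained there, 1 did not, and 1 gene was under the minimum. In the crypt gate the median of the list was 0.24.

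Of 20 immediate early and heat shock genes 2 were called lower, Hsph1 and Ier3, and 0 higher. In marker-rich cells neither was called, with Hsph1 on the other side of 1 at 1.34 (0.70 to 2.63), and 3 of 20 were higher. Fos and Jun, early genes known to rise in dissociated tissue, had CPM of 1998 and 1818 in model goblet cells, against 1617 and 1531 in control ones. Of 24 nuclear genes of mitochondrial respiration 0 were called (1 higher in marker-rich cells), of 104 ribosomal protein genes 0 were higher and 1 lower (median log2 ratio −0.36), and of 15 mitochondrially encoded genes 0 were higher and 2 lower (−0.21). Proximal intestine genes were called higher in 5 of 8 and lower in 0, and in marker-rich cells 3 of 5 were higher. Of the 5 calls in all goblet cells 2 remained there, and 3 genes were under the minimum. Onecut2, a factor of the proximal gut, had 636 UMIs in the model and 455 in the control library, a ratio of 1.62 (95% interval 1.43 to 1.83), and 1.73 (1.43 to 2.09) in marker-rich cells. Pdx1, the duodenal homeobox factor, lay below the minimum of 20 UMIs with 19 in model and 3 in control, a ratio of 7.32 (2.15 to 38.6). Fabp1, an enterocyte fatty acid carrier, had 9309 UMIs in model goblet cells, against 3215 in control ones, and 1 control cell held 40.1% of the control count; without the top cell of each library its level was 2786 CPM in model and 569 CPM in control. Of 10 distal intestine genes 3 were higher and 2 lower, and in marker-rich cells 0 of 5 were called. The phospholipase Plb1 had 0 UMIs in model and 29 in control goblet cells, and in the enterocyte gate 0 and 133 CPM. With 3 UMIs put in place of the 0 in model goblet cells it was 8.36-fold lower, a value without counting error. Of 13 villus surface genes 1 was higher and 4 lower, among them Ada, adenosine deaminase, with 218 UMIs in the model and 437 in the control library, and Pmp22 with 54 UMIs in model goblet cells, against 223 in control ones; in marker-rich cells these ratios were 0.568 (0.376 to 0.849) and 0.224 (0.122 to 0.389).

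By size of change over all genes, 12 were named in each direction. The 12 higher ones were Papss2, Pck1, Gstm6, Nr1d1, Arg2, Abhd6, Ces1f, Isg15, Clec2e, Gsta1, Dhrs1 and Ifit1. Pck1, a gluconeogenic enzyme, had 556 UMIs in model and 197 in control goblet cells, a ratio of 3.26 (95% interval 2.77 to 3.86), and 1.9 (1.51 to 2.39) in marker-rich cells. Arg2, the mitochondrial arginase, had 787 UMIs in the model and 366 in the control library, a ratio of 2.48 (95% interval 2.19 to 2.82), and 2.05 (1.48 to 2.87) in marker-rich cells. Gsta1, a glutathione transferase, had 651 UMIs in model goblet cells, against 333 in control ones, a ratio of 2.26 (1.98 to 2.59). Of these 12 genes, 11 had their highest gated level in the enterocyte gate, and in marker-rich cells Papss2, Abhd6, Ces1f, Dhrs1 and Ifit1 were no longer called. Calls remained there for Pck1, Nr1d1, Arg2, Isg15, Clec2e and Gsta1, while Gstm6, with 0 UMIs in control, was under the minimum of 20 UMIs. Gstm6, Gsta1, Ces1f and Clec2e belong to families with near copies, and how reads were shared among copies is not given in the sources used here.

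The 12 lower ones were Duox2, Saa1, Map3k6, Baiap2, Ccnd1, Xpo4, Reg3g, Sytl1, Sema7a, Racgap1, Cemip2 and Ipo5. Map3k6, a stress-activated kinase, had 7 UMIs in model and 57 in control goblet cells, 7.05-fold lower (95% interval 3.21 to 18.3). Baiap2, an actin-binding adaptor, had 28 UMIs in the model and 102 in the control library, and Sytl1, a Rab27-binding vesicle protein, 19 UMIs in model goblet cells, against 69 in control ones. Ccnd1, cyclin D1, had 141 UMIs in model and 399 in control goblet cells, and Sema7a, a membrane-anchored semaphorin, 69 UMIs in the model and 197 in the control library. In marker-rich cells 8 of these 12 were still called lower, among them Sytl1 at 0.19 (0.0863 to 0.378), Sema7a at 0.256 (0.171 to 0.373) and Cemip2 at 0.40 (0.241 to 0.645), while Ccnd1, Xpo4, Racgap1 and Ipo5 were not; the last 4 had their highest gated level in the crypt gate. Map3k6 had its highest gated level in the stromal gate, Baiap2 and Cemip2 in the myeloid gate and Sema7a in the tuft gate, and the part of RNA from those cells in the goblet values was not tested. Outside goblet cells, Map3k6 was lower in the enterocyte gate at a ratio of 0.0657 and Sytl1 at 0.21. Among the 15 enriched genes, Tm4sf4 alone was called, with 2955 UMIs in model goblet cells, against 2110 in control ones, a ratio of 1.62 (95% interval 1.53 to 1.71); S100a6 had 7133 UMIs in model and 10291 in control goblet cells, a ratio of 0.801 (0.777 to 0.826).

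**Figure D5:**
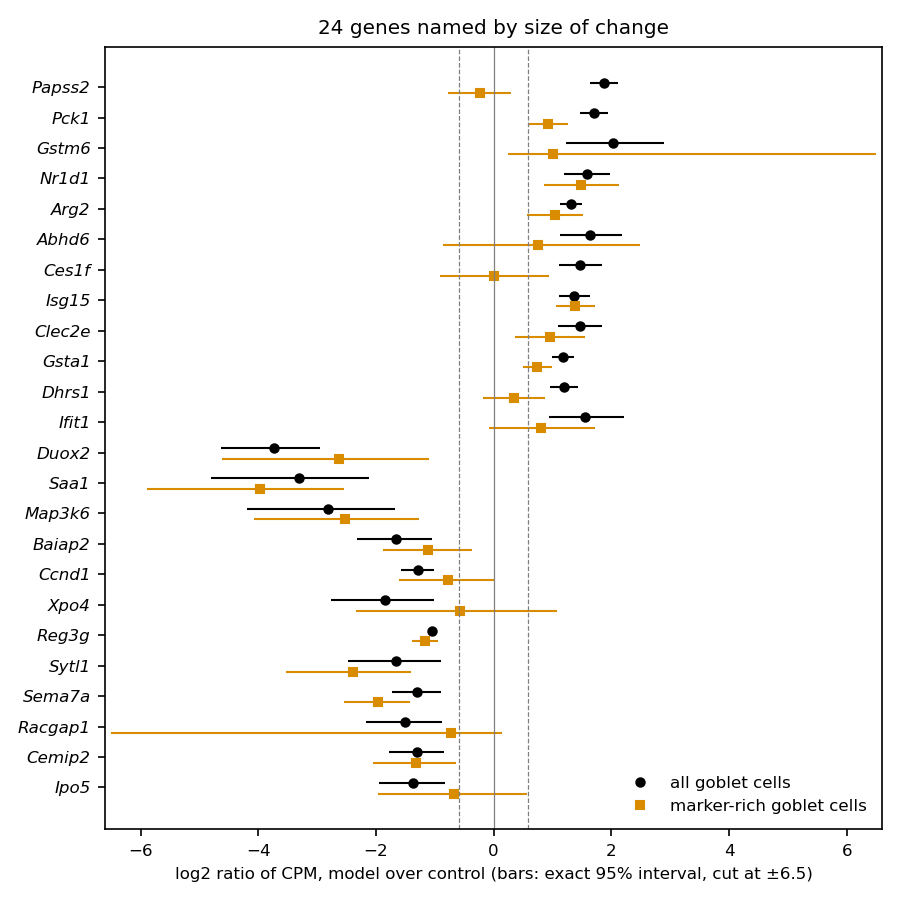
Log2 ratio of CPM, model over control, of the 24 genes named by size of change, in all goblet cells (black) and marker-rich goblet cells (orange), with exact 95% intervals and dashed lines at a ratio of 1.5 and its inverse; a gene at 0 in a library is set against 3 UMIs. Isg15, Nr1d1 and Duox2 keep their side in both, and Papss2 crosses 0.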

How the data were processed

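Per the file headers, the counts the authors deposited are whole-number UMI counts per gene and barcode, written by Cell Ranger 7.0.1. Cell Ranger 4.0 and the GRCm39 build stand in the submitters' processing notes, and this conflict of versions could not be settled. Totals were 76701215 UMIs in 11468 model barcodes and 61370270 UMIs in 10259 control barcodes. Kept cells (2480 model and 1997 control barcodes were over the mitochondrial limit) had a median of 3761 UMIs in model and 3636 UMIs in control, and median mitochondrial shares of 5.38% and 10.8%.

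From these counts, UMIs were summed over the goblet cells of each library and divided by their total to give CPM. Ratios carry exact binomial 95% intervals, which cover counting error only, since cells of 1 library are not replicates. Where each cell was weighted equally, the interval of the summed UMIs was rescaled to the new ratio and is not exact. For a gene at 0 in 1 library, the fold given uses 3 UMIs in that library and leaves out counting error. Other cells were put in gates by marker UMIs, which are ranges and not cell types. Genes named by size had 50 or more UMIs in the library with the higher level, a pooled goblet CPM at least 0.2 of that in the highest gate, and no cell with over 20% of the UMIs, 12 in each direction in order of the interval bound nearest to 1. From the lists, some of the members called, of those with the highest and lowest ratios and, for secretory lists, of the most abundant ones are named; other members named with values were added after their values were seen. Doublets were not called. Members and lists were chosen with earlier results of these data known, and the enterocyte and proximal lists were already known to differ in these cells; the marker-rich range was chosen after the data were seen. The calculation was tested on simulated sums with counting error only, which does not cover variation between cells or between libraries. Promoters came from RefSeq GRCm38.p6, matched by symbol, for all 4 genes shown, and no coordinate was joined to the deposited counts. Python 3.11.15, numpy 2.4.6, scipy 1.17.1, pandas 2.3.3 and matplotlib 3.10.9 were used. Of 601 list genes, 598 were found by symbol among 56980 genes in the files. Alternatives changed the limits on cells, the scaling, the thinning and the low-count minimum.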

Additional observations from a re-analysis of the deposited data

Results flagged for a closer look

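Ipo5, a nuclear import receptor, was lower in model goblet cells and higher in the model enterocyte gate. It had 38 UMIs in model and 114 in control goblet cells, a ratio of 0.385 (95% interval 0.26 to 0.561), while in the enterocyte gate the ratio of model over control was 1.63. The ratios lay on opposite sides of 1 in these classes, and the difference was not tested. In the crypt gate, where its level was highest, the ratio was 0.959, and in marker-rich goblet cells it was 0.63 (0.256 to 1.48).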

How the results depend on the processing

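With 1 library per group and no replicates, no library could be left out. No paired analysis was possible because each group holds 1 library and the groups share only replicate number 1. The cause was not tested for any of the changes below, beyond what each setting removes. The ratio of goblet shares was 0.574 with a mitochondrial limit of 10%, 0.841 and 0.858 with marker shares of at least 3% and 5%, and 0.957 among epithelial cells. Genes called higher numbered 953 with each cell weighted equally, 114 after thinning, and 175 without cells over 1% enterocyte UMIs, against 425. The 175 were 2.04% of the genes measured in that setting, and the 425 were 4.62%. Counts with cells weighted equally use rescaled intervals that do not cover the counting error of shallow cells, so they are not comparable with the others. Thinning left 2272 genes to measure, of which 5.02% were called higher and 5.99% lower. Genes called lower, 600 in all goblet cells, numbered 384, 259 and 221 at marker shares of at least 3%, 5% and 10%, and 283 without the 8% deepest cells. They numbered 1329 with cells weighted equally, 136 after thinning, 216 in marker-rich cells, and 350 at a minimum of 50 UMIs. Most of these settings measured fewer genes. As shares of those measured, the 600 were 6.52%, against 4.71%, 3.55% and 3.4% at the 3 marker shares. The share was 3.75% without the deepest cells, 3.74% in marker-rich cells and 5.34% at 50 UMIs. The median log2 ratio of the other goblet genes was −0.010 at 3%, 0.012 at 5%, 0.46 with cells weighted equally and 0.24 after thinning. That of the ER folding list was 0.15 at 5%, 0.16 without the deepest cells, 0.037 without mitochondrial and ribosomal genes in the total, 0.29 with cells weighted equally, 0.24 after thinning, 0.034 without cells over 2% immunoglobulin, 0.29 at 10% and 0.40 in marker-rich cells. The cell cycle median was −1.45 at 3%, −0.96 at 5%, 0.24 without the deepest cells, −0.49 with cells weighted equally, −0.12 after thinning, −0.20 at 10%, −0.43 without cells over 1% enterocyte UMIs and −0.37 in marker-rich cells. The crypt median was −0.082 at 5%, 0.067 at 10% and 0.012 in marker-rich cells. The enterocyte marker median was −0.30 with cells weighted equally, −0.31 after thinning, −0.072 without cells over 1% enterocyte UMIs, 0.36 at 10% and 0.0063 in marker-rich cells, and the oxidase median was 0.21 there. Single genes turned round for Ces1f after thinning (0.886) and Papss2 in marker-rich cells (0.848), and of the other values for named genes 303 stayed close and 78 moved. T marker medians turned to 0.44 at a mitochondrial limit of 10%, 0.081, 0.29 and 0.22 at marker shares of 3%, 5% and 10%, 0.36 and 0.37 without immunoglobulin-rich and enterocyte-rich cells, and 0.12 in marker-rich cells; plasma marker medians turned to 0.41 without immunoglobulin-rich cells and 0.28 in marker-rich cells, and the MHC class I median to −0.20 with cells weighted equally. Pck1, Arg2, Isg15, Gsta1, Duox2, Map3k6, Sema7a and Cemip2 passed the call in all 16 settings that gave gene ratios.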
